A study of Homo sapiens with 24 samples.

Results

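The mitochondrial ribosomal protein genes were taken as every row of the read-count table that was marked protein-coding and whose symbol was MRPL or MRPS followed by a digit. They were 78 of the 14493 genes in the table, of which 12343 were protein-coding. A further 5 rows with such a symbol were not marked protein-coding and were left out. By their place in the ribosome, 51 members belonged to the large subunit (MRPS30 and MRPS18A, which sit there in spite of their symbols, included) and 26 to the small subunit. MRPS36 was counted apart, because it is known as a subunit of the 2-oxoglutarate dehydrogenase complex. By their origin, 48 members are homologues of bacterial ribosomal proteins and 29 are found in mitochondrial ribosomes and not in bacterial ones.

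Mitochondria hold a ribosome of their own, which translates the few mRNAs of mitochondrial DNA into core subunits of the respiratory chain and of ATP synthase. Its ribosomal RNAs are made from mitochondrial DNA, whereas all of its proteins are encoded in the nucleus, made in the cytosol, and imported. Compared with its bacterial ancestor, it holds less RNA and more protein, and its large subunit is held at the inner membrane, into which the new proteins are inserted.

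The libraries were made from the SKBr3 line, human breast cancer cells with amplified ERBB2 that are an established line, in 8 groups of 3 replicates. Therapy-induced senescence (TIS) was produced with ND-646 (250 nmol/L), which inhibits acetyl-CoA carboxylase, TVB-3166 (250 nmol/L), which inhibits fatty acid synthase, bleomycin (10 μmol/L), a DNA-cleaving drug, alisertib (500 nmol/L), an Aurora A kinase inhibitor, doxorubicin (10 nmol/L), a topoisomerase poison, or palbociclib (1 μmol/L), an inhibitor of cyclin-dependent kinases. Cells of these 6 groups received fresh drug on day 3 and were collected on day 7, and untreated cells of day-0 and of day-7 made up the remaining groups. The labels give a refeed on day 3 for the drug groups and name none for untreated day-7 cells. Senescence after ND-646 or TVB-3166 is called FASTIS (fatty acid synthesis TIS). All groups came from this cell line, and the labels do not say whether replicates were separate cultures, so the p-values measure only the spread between these libraries.

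Total counts ranged from 29405121 to 44316330 per library, and the lowest count of a member was 268 (MRPS6 in ND-646 replicate 2), so all 78 members were tested in every comparison. Of the markers of the cell line, ERBB2, KRT8, KRT18, KRT19, and EPCAM were all listed, with ERBB2 between 5121 and 8827 CPM (the usual depth-scaled count unit, here with TMM factors). Of 5 markers of other cell types, PTPRC, COL1A2, PECAM1, and VIM had no row in the table and COL1A1 was at 6.43 to 15.25 CPM. By the test against day-0 cells used for the members, KRT8 and KRT19 fell in all 6 TIS groups, KRT18 fell in 5 and was at -0.56 on the log2 scale in ND-646 cells (-0.86 and past the test without replicate 1), ERBB2 and EPCAM passed in none, and COL1A1 fell in bleomycin (-0.49), doxorubicin (-0.68), and palbociclib cells (-0.54). The part of these changes in the members' values was not tested. A single library stood apart. In ND-646 replicate 1, the 74 cytosolic ribosomal protein genes took 10.5% of the counts, against 4.20% to 6.62% in the other 23 libraries, and its scaling factor (TMM, the trimmed mean of M-values) was the lowest at 0.791. The main counts for ND-646 cells are therefore given with and without this library. In bulk RNA, a smaller share of cells that express a gene and a lower level per cell cannot be told apart.

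In untreated day-0 cells, the level per kb of annotated exon ranged from 2.95 to 176 CPM per kb. The highest were MRPL12 (176 CPM per kb), MRPS18B (128 CPM per kb), and MRPS16 (121.5 CPM per kb). MRPL12 is the protein of the flexible stalk that recruits translation factors to the ribosome. The lowest were MRPS25 (2.95 CPM per kb), MRPL46 (4.24 CPM per kb), and MRPL42 (4.88 CPM per kb). These last values divide by the summed length of all annotated exons, which is 18309 bases for MRPS25 and 16368 for MRPL42 against 1009 for MRPL12, so they depend on how much of that length is in the mRNA of these cells.

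**Figure D1:**
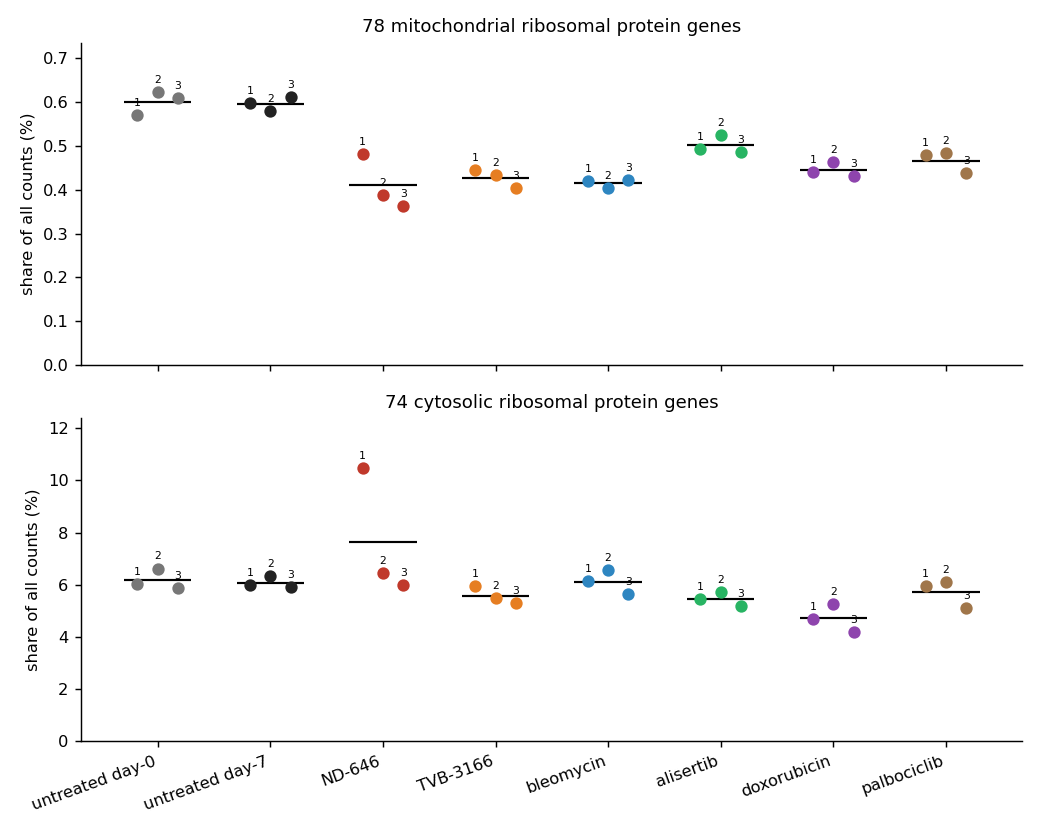
Share of all counts (%, from 0) in each of the 24 libraries for the 78 mitochondrial (top) and the 74 cytosolic (bottom) ribosomal protein genes, with points numbered by replicate and lines at the group means. In the top panel every library of the 6 drug groups sits below every untreated library, and in the bottom panel ND-646 replicate 1 sits at 10.5%, above the other 23 libraries.

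Together the members took a smaller share of the counts in all 6 TIS groups than in untreated cells. The share was 0.570%, 0.622%, and 0.609% in the day-0 libraries, and 0.597%, 0.580%, and 0.611% in the day-7 libraries. It was 0.480%, 0.388%, and 0.363% in ND-646, 0.445%, 0.434%, and 0.4035% in TVB-3166, and 0.420%, 0.404%, and 0.421% in bleomycin libraries. Alisertib libraries had 0.491%, 0.5235%, and 0.486%, doxorubicin libraries 0.441%, 0.464%, and 0.431%, and palbociclib libraries 0.479%, 0.483%, and 0.437%. The highest library of treated cells (alisertib replicate 2) was thus lower than the lowest untreated library (day-0 replicate 1). Relative to the day-0 mean of 0.600% ± 0.0271 (SD, n = 3), the group means stood at 68.3% for ND-646, 71.2% for TVB-3166, 69.15% for bleomycin, 83.4% for alisertib, 74.1% for doxorubicin, 77.6% for palbociclib, and 99.3% for untreated day-7 cells. A share also moves with what the other genes do. After TMM scaling, ND-646 replicate 1 was at 0.607%, within the untreated range of 0.555% to 0.637%, and the other 17 libraries of treated cells were at 0.3865% to 0.486%.

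Gene by gene, most members fell in 5 of the TIS groups. Against untreated day-0 cells, 62 members fell and 0 rose in TVB-3166 cells, 64 fell and 1 rose in bleomycin cells, 55 fell and 0 rose in alisertib cells, 69 fell and 0 rose in doxorubicin cells, and 63 fell and 1 rose in palbociclib cells, at a Benjamini-Hochberg adjusted p under 0.05 by edgeR's quasi-likelihood test over all genes tested. Of all genes tested, 27.7% fell and 27.4% rose in TVB-3166 cells, 25.3% fell and 24.1% rose in bleomycin cells, 19.6% fell and 17.7% rose in alisertib cells, 24.8% fell and 23.7% rose in doxorubicin cells, and 27.2% fell and 26.0% rose in palbociclib cells. The median log2 fold-change over the 78 members was -0.53 in TVB-3166, -0.57 in bleomycin, -0.38 in alisertib, -0.52 in doxorubicin, and -0.51 in palbociclib cells, and that over all genes tested lay between -0.01 and 0.01 in these comparisons. The steps were small for single genes. At a fold-change of at least 2 with a raw p under 0.05, 2 members were lower in TVB-3166, 3 in bleomycin, 0 in alisertib, 0 in doxorubicin, and 8 in palbociclib cells, against 6.75%, 7.3%, 1.44%, 2.9%, and 6.15% of all genes tested. By DESeq2, RLE size factors, no filter, a minimum count, and a single fit of all libraries, the counts of members by adjusted p stayed within 1.5 times of these values.

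In ND-646 cells the count of members depended on replicate 1. With all 3 libraries, 28 members fell and 0 rose, against 18.8% and 19.1% of all genes tested, and the median log2 fold-change was -0.47 (0.02 over all genes). Library by library, the median over members of log2 CPM minus the day-0 mean was -0.05 in replicate 1, -0.64 in replicate 2, and -0.69 in replicate 3. Without replicate 1, 68 members fell and 0 rose, against 27.8% and 27.1% of all genes tested, with all 78 differences below 0 and a median of -0.66. The 10 that did not pass then were MRPL33, MRPL43, MRPL53, MRPL54, MRPL55, MRPS10, MRPS14, MRPS26, MRPS33, and MRPS35. Leaving out any 1 of the other 5 libraries gave 10 to 16 members lower: 11 without ND-646 replicate 2 or 3, 15 without day-0 replicate 1, 10 without day-0 replicate 2, and 16 without day-0 replicate 3. The share of all genes that fell is not given for these fits, and it was 18.8% with all libraries. By the 2-fold rule with raw p, 1 member (MRPL18) was lower with all libraries, against 9.29% of all genes tested. Without replicate 1, a combination chosen after the data were seen, 11 members were lower by that rule (MRPL2, MRPL11, MRPL18, MRPL22, MRPL27, MRPL39, MRPL40, MRPL47, MRPL51, MRPS6, and MRPS18C), against 10.3% of all genes tested. What set replicate 1 apart was not tested.

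**Figure D2:**
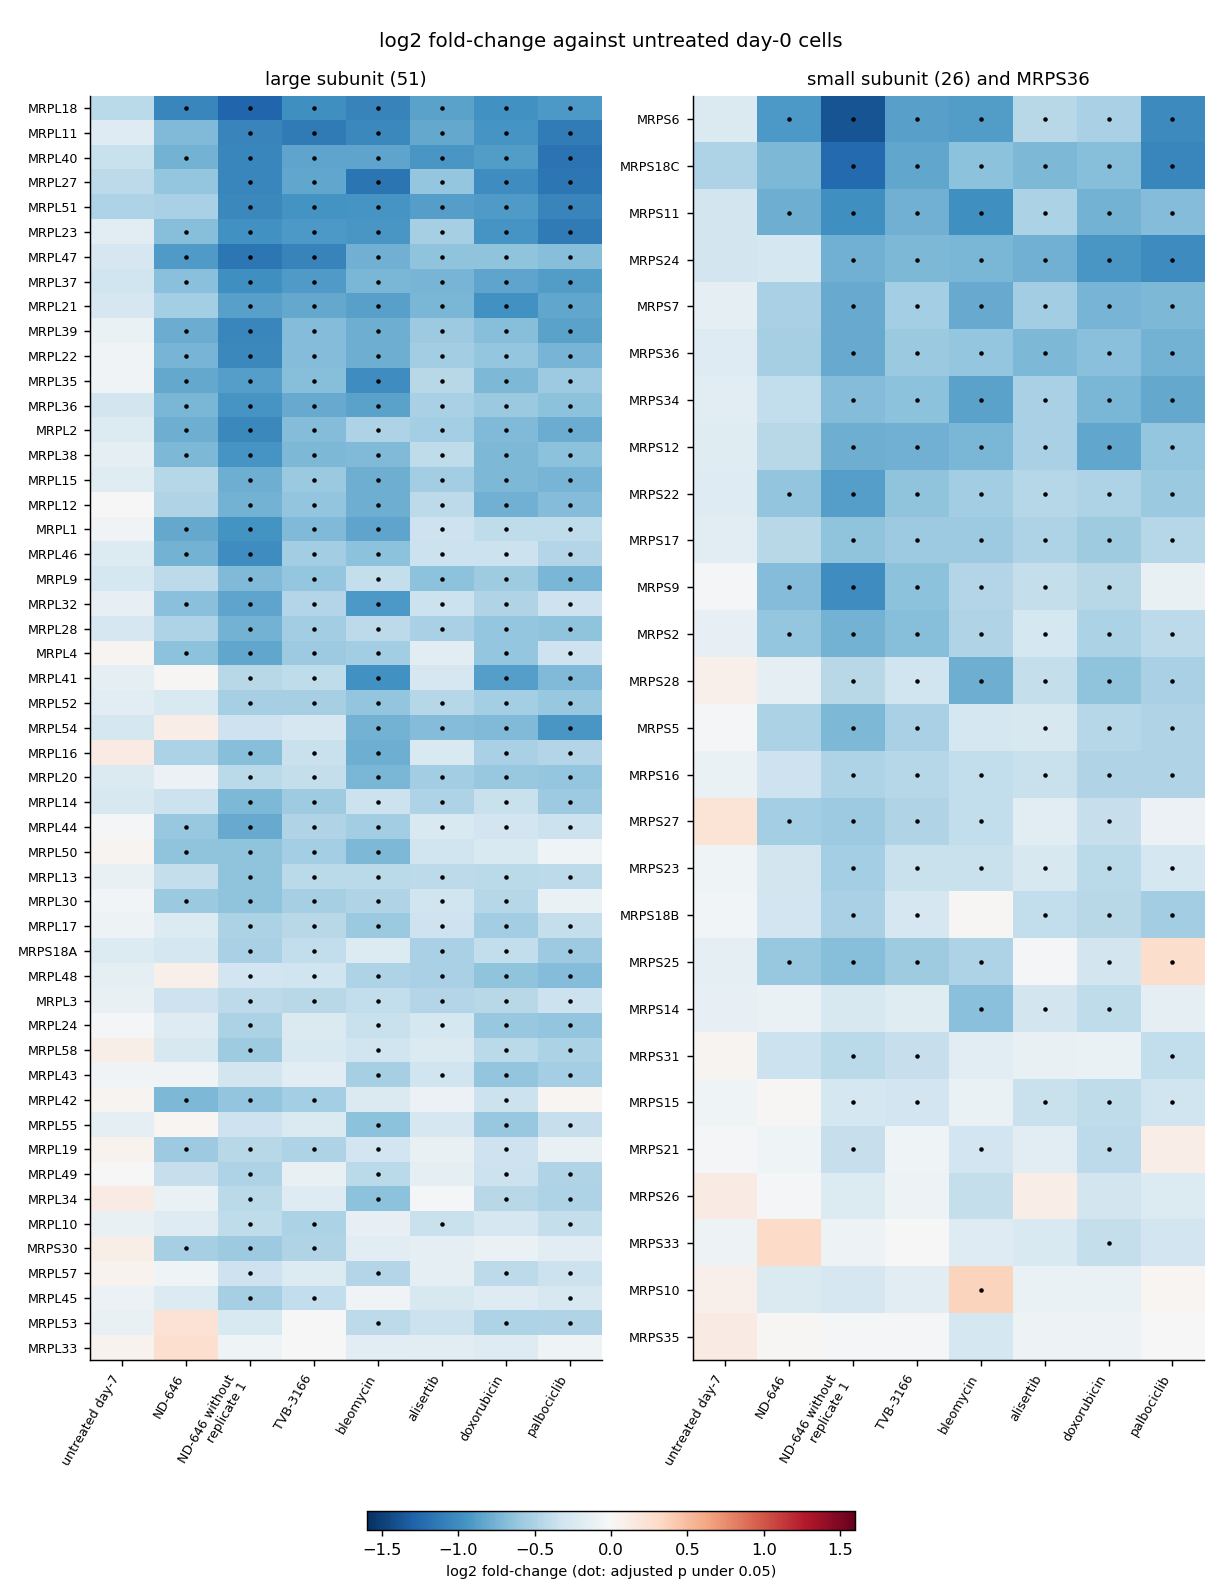
Log2 fold-change against untreated day-0 cells (colour) for each member (rows, by subunit, ordered by the mean over the drug columns) in untreated day-7 cells and the 6 TIS groups, with ND-646 also shown without replicate 1. Dots mark an adjusted p under 0.05 by edgeR. Nearly all drug cells are blue, the day-7 column carries 0 dots, and the few red cells include MRPS10 in bleomycin (0.35) and MRPS25 in palbociclib (0.28).

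Of the 78 members, 19 fell in all 6 TIS groups against day-0 cells, 28 in 5, 12 in 4, 10 in 3, 4 in 2 (MRPL45, MRPS21, MRPS30, MRPS31), 1 in 1 (MRPS33), and 4 in none (MRPL33, MRPS10, MRPS26, MRPS35). With ND-646 taken without replicate 1, 44 fell in all 6 groups, 10 in 5, 10 in 4, 8 in 3, 1 in 2, 1 in 1, and 4 in none. All comparisons shared the 3 day-0 libraries. The same tally was not made over all genes, so whether these numbers exceed it is not known. With all libraries, the 19 were MRPL1, MRPL2, MRPL18, MRPL22, MRPL23, MRPL32, MRPL35, MRPL36, MRPL37, MRPL38, MRPL39, MRPL40, MRPL44, MRPL46, MRPL47, MRPS2, MRPS6, MRPS11, and MRPS22. Both subunits took part. In bleomycin cells, 45 of 51 large-subunit and 18 of 26 small-subunit members fell, and in doxorubicin cells 46 of 51 and 22 of 26. Homologues of bacterial proteins and mitochondria-specific members both fell as well, by 45 of 48 and 23 of 29 in doxorubicin cells and by 40 of 48 and 14 of 29 in alisertib cells. The difference between these subgroups was not tested.

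The large-subunit stalk is built of few proteins. MRPL11, a homologue of bacterial L11 at the base of the stalk, was at 82.6, 70.2, and 62.5 CPM in day-0 libraries and at 36.3, 30.55, and 30.9 CPM in TVB-3166 libraries. All TVB-3166 libraries were below all day-0 libraries, and the log2 fold-change was -1.13 (SE 0.121, edgeR adjusted p = 2.05e-05). In palbociclib libraries MRPL11 was at 34.4, 35.5, and 28.9 CPM, again without overlap, with a log2 fold-change of -1.12. In ND-646 cells its value was -0.70 (edgeR adjusted p = 0.052) with replicate 1 at 63.9 CPM inside the day-0 range, and -1.05 without that library (edgeR adjusted p = 0.00018). MRPL12, which MRPL10 anchors to the ribosome, was at 173, 196, and 162 CPM in day-0 libraries and at 103, 112.5, and 93.7 CPM in doxorubicin libraries. It fell in 5 groups, from -0.42 in alisertib to -0.78 in bleomycin cells on the log2 scale, and stood at -0.48 in ND-646 cells (edgeR adjusted p = 0.104), or -0.76 without replicate 1 (edgeR adjusted p = 0.000551). MRPL10 fell in TVB-3166 (log2 fold-change -0.50), alisertib (-0.35), and palbociclib cells (-0.38), and was at -0.14 in bleomycin and -0.28 in doxorubicin cells. In ND-646 cells MRPL10 was at -0.21, or -0.41 without replicate 1 (edgeR adjusted p = 0.0198).

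MRPL18 (chr6:160210844-160219468 on GRCh37), a homologue of the bacterial protein that binds 5S ribosomal RNA, was the member with the largest absolute change in ND-646 cells with all 3 libraries. Its day-0 libraries were at 96.55, 84.7, and 86.5 CPM, and its ND-646 libraries at 56.1, 38.6, and 35.45 CPM. The groups did not overlap, and the log2 fold-change was -1.05 (SE 0.189, edgeR adjusted p = 0.00285), or -1.27 without replicate 1, where MRPS6 (-1.38) had the larger change. It was also lower in each other TIS group, at -0.99 in TVB-3166, -1.07 in bleomycin, -0.86 in alisertib, -0.97 in doxorubicin, and -0.92 in palbociclib cells. Its untreated day-7 libraries, at 67.8, 63.4, and 66.2 CPM, lay between those of day-0 cells and those of the TIS groups without touching either, with a difference from day-0 of -0.43 (edgeR adjusted p = 0.0595). MRPL40 (chr22:19420068-19423598), a mitochondria-specific member encoded in the chromosome 22 region that is deleted in DiGeorge syndrome, was at 44.7, 38.7, and 34.6 CPM in day-0 and 17.95, 17.2, and 16.95 CPM in palbociclib libraries. With all libraries, that was the largest absolute change of a member in the 6 drug comparisons (log2 fold-change -1.18, SE 0.117, edgeR adjusted p = 2.45e-05). MRPL27, a homologue of the bacterial protein next to the peptidyl transferase center, was at 24.4, 24.2, and 23.8 CPM in day-0 and at 13.0, 9.42, and 9.72 CPM in bleomycin libraries (log2 fold-change -1.17, SE 0.153, edgeR adjusted p = 0.0003). In ND-646 libraries it was at 23.9, 10.9, and 12.6 CPM, so that replicate 1 was close to day-0 cells and the others were not, and without replicate 1 its log2 fold-change was -1.04 (edgeR adjusted p = 0.000165).

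**Figure D3:**
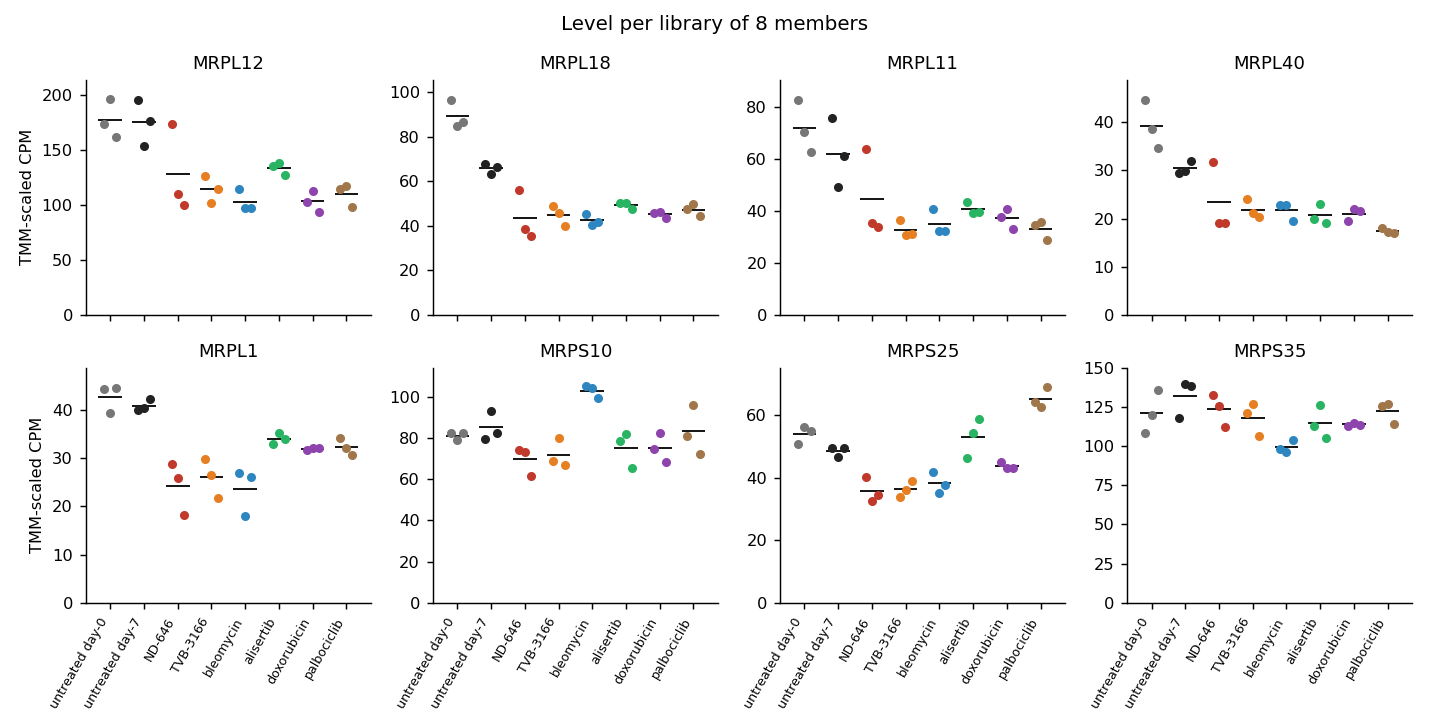
TMM-scaled CPM (y axes from 0, scales differ between panels) of 8 members in each library of the 8 groups, with lines at the group means. For MRPL18 all treated libraries lie below all untreated ones, and for MRPL11 and MRPL40 all but ND-646 replicate 1 (63.9 and 31.8 CPM) do, while the group mean of MRPS10 is highest in bleomycin and that of MRPS25 in palbociclib cells.

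Some large-subunit members lie where the nascent chain leaves the ribosome. MRPL23, a homologue of bacterial L23 at the tunnel exit, fell in all 6 groups, from -0.53 in alisertib to -1.13 in palbociclib cells on the log2 scale, with 18.1, 19.7, and 15.7 CPM in palbociclib against 42.2, 39.8, and 34.7 CPM in day-0 libraries. MRPL47, a homologue of bacterial L29, was at 108, 98.5, and 94.7 CPM in day-0 and 50.6, 49.6, and 43.55 CPM in TVB-3166 libraries (log2 fold-change -1.06, SE 0.0998, edgeR adjusted p = 8.27e-06). MRPL44, which is mutated in an infantile cardiomyopathy, also fell in all 6 groups, from -0.25 in alisertib to -0.61 in ND-646 cells. MRPL45, which anchors the ribosome at the inner membrane, fell in TVB-3166 (-0.40) and palbociclib cells (-0.26) and was at -0.05 in bleomycin cells (edgeR adjusted p = 0.73), and in ND-646 cells it was at -0.22, or -0.53 without replicate 1. Its coefficient of variation over the 8 group means was 8.94%, the second lowest of the members, whereas those of MRPL11 (32.65%), MRPL18 (30.5%), and MRPL23 (29.9%) were the highest.

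The remaining large-subunit members named by size were MRPL1, MRPL35, MRPL51, and MRPL21. MRPL1, a homologue of the protein of the mobile L1 stalk, was at 44.3, 39.4, and 44.6 CPM in day-0 libraries, at 28.7, 25.95, and 18.2 CPM in ND-646 libraries, and at 27.0, 18.01, and 26.02 CPM in bleomycin libraries. It fell by 0.82 and 0.85 on the log2 scale there, and by 0.34 to 0.41 in alisertib, doxorubicin, and palbociclib cells. MRPL35 fell in all 6 groups, by 0.45 in alisertib to 0.99 in bleomycin cells. MRPL51, a mitochondria-specific member, fell in 5 groups (log2 fold-change -0.88 in alisertib to -1.06 in palbociclib cells) and was at 125, 55.3, and 53.4 CPM in ND-646 libraries against 130, 109, and 94.4 CPM in day-0 libraries, with a log2 fold-change of -1.03 without replicate 1 (edgeR adjusted p = 0.000245). MRPL21 fell in the same 5 groups, with the largest change in doxorubicin cells (-0.97), and was at -0.87 in ND-646 cells without replicate 1. MRPL3, which is mutated in a mitochondrial cardiomyopathy, fell by 0.34 to 0.47 on the log2 scale in the 5 groups other than ND-646, and by 0.42 in ND-646 cells without replicate 1. MRPL58, a peptidyl-tRNA hydrolase that rescues stalled ribosomes, fell in bleomycin (-0.32), doxorubicin (-0.44), and palbociclib cells (-0.51). It was at -0.24 in TVB-3166 cells (edgeR adjusted p = 0.0984). In ND-646 cells MRPL58 did not pass with all libraries, and was at -0.57 without replicate 1 (edgeR adjusted p = 0.0016). MRPL46, whose gene faces that of MRPS11 head to head, fell in all 6 groups, by 0.34 in doxorubicin to 0.76 in ND-646 cells.

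In the small subunit, members at the decoding center and in the head fell as well. MRPS12, a homologue of the bacterial protein in which streptomycin resistance mutations arise, was at 73.7, 83.6, and 67.5 CPM in day-0 and 42.4, 47.5, and 35.9 CPM in doxorubicin libraries (log2 fold-change -0.83, SE 0.123, edgeR adjusted p = 0.000509). It fell in 5 groups and was at -0.44 in ND-646 cells, or -0.78 without replicate 1 (edgeR adjusted p = 0.00057). MRPS7, a homologue of the protein that starts assembly of the head, fell in the same 5 groups, by 0.54 in TVB-3166 to 0.80 in bleomycin cells, and by 0.81 in ND-646 cells without replicate 1. MRPS11 fell in all 6 groups, from -0.50 in alisertib to -0.99 in bleomycin cells. MRPS24 was at 117, 123, and 101 CPM in day-0 and 59.4, 60.6, and 50.3 CPM in palbociclib libraries (log2 fold-change -1.004), but its 3 ND-646 libraries were at 149, 68.1, and 65.6 CPM. Without the first of these, MRPS24 stood at -0.77 on the log2 scale (edgeR adjusted p = 0.00044). MRPS22, which is mutated in a mitochondrial disease of infancy, fell in all 6 groups, by 0.45 in alisertib to 0.65 in TVB-3166 cells. MRPS27, which carries pentatricopeptide repeats, fell in ND-646 (-0.55), TVB-3166 (-0.48), bleomycin (-0.40), and doxorubicin cells (-0.36) and was at -0.09 in palbociclib cells. MRPS16, one of the 3 most abundant members per kb, fell by 0.36 to 0.49 in the 5 groups other than ND-646, and by 0.49 in ND-646 cells without replicate 1.

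MRPS6 had one of the largest changes in ND-646 cells (log2 fold-change -0.92, SE 0.3, edgeR adjusted p = 0.0387), but its call ended when any library but replicate 1 was left out, and without replicate 1 it was -1.38 (edgeR adjusted p = 8.73e-05). Its libraries were at 30.5, 24.7, and 23.3 CPM in day-0 and 21.8, 9.58, and 10.5 CPM in ND-646 cells. Its annotated exons overlap those of SLC5A3 on the same strand by 265 bases, so that part of its counts could belong to either gene.

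The values of the 3 paralogs of bacterial S18 were spread. MRPS18C, in the small subunit, fell in 5 groups, by 0.66 in bleomycin to 1.05 in palbociclib cells on the log2 scale, and was at 32.3, 14.0, and 13.5 CPM in ND-646 against 36.9, 28.8, and 31.5 CPM in day-0 libraries. Without replicate 1 it stood at -1.24 there on the log2 scale (edgeR adjusted p = 8.77e-05), and those of MRPS18B and MRPS18A were -0.52 and -0.52, both past the test. MRPS18B, in the small subunit as well, fell in 4 groups, by 0.27 in TVB-3166 to 0.56 in palbociclib cells, and was at 0.02 in bleomycin cells (edgeR adjusted p = 0.92), with bleomycin libraries at 218, 256, and 204 CPM and day-0 libraries at 249, 216, and 208 CPM. MRPS18A, in the large subunit, fell by 0.39 in TVB-3166 and doxorubicin, 0.52 in alisertib, and 0.58 in palbociclib cells, and was at -0.22 in bleomycin cells (edgeR adjusted p = 0.155). Whether the paralogs differed from each other within a group was not tested. MRPS36, the dehydrogenase subunit that shares the naming of these genes, fell in 5 groups, by 0.59 in TVB-3166 to 0.75 in palbociclib cells, and by 0.80 in ND-646 cells without replicate 1.

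Few members went the other way. MRPS10 (chr6:42174545-42185599 on GRCh37), a homologue of bacterial S10, was at 82.2, 78.9, and 82.25 CPM in day-0 and at 105, 104, and 99.2 CPM in bleomycin libraries, with no overlap (log2 fold-change 0.35, SE 0.0904, edgeR adjusted p = 0.00992). In the other 5 TIS groups it lay between -0.23 and 0.03 and did not pass the test. MRPS25 (chr3:15051118-15106846), a mitochondria-specific protein of the small subunit, was at 50.75, 56.2, and 55.1 CPM in day-0 libraries and at 64.1, 62.8, and 69.1 CPM in palbociclib libraries (log2 fold-change 0.28, SE 0.0908, edgeR adjusted p = 0.0254). This rise was lost when palbociclib replicate 1 (0.28) or replicate 3 (0.23) was left out. The same gene fell in ND-646 (-0.60), TVB-3166 (-0.57), bleomycin (-0.49), and doxorubicin cells (-0.29), and its exons overlap NR2C2 on the opposite strand by 7157 bases. MRPS35 had the lowest coefficient of variation over the 8 group means (8.01%), followed by MRPL45 and MRPS23 (10.8%), and MRPS35 ranged from -0.28 in bleomycin cells to 0.02 in ND-646 cells without passing the test. MRPS23, by contrast, fell by 0.26 to 0.44 in 5 groups, so a low variation over groups did not mean that a member was not called.

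Some counts could be shared with other genes. The exons of 25 members overlapped a listed gene in the annotation, 5 of them on the same strand (MRPL28, MRPL33, MRPL53, MRPS6, MRPS17) and 20 on the opposite strand. Among the 53 members without such an overlap, 43 fell in TVB-3166, 40 in bleomycin, 37 in alisertib, 45 in doxorubicin, 43 in palbociclib, and 20 in ND-646 cells, or 47 in ND-646 cells without replicate 1.

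Time in culture was examined with untreated day-7 cells. Against day-0, 0 members rose and 0 fell by edgeR's adjusted p, with 18 at a raw p under 0.05, while 0.389% of all genes tested rose and 0.198% fell. By DESeq2, 5 members were lower. The median log2 fold-change was -0.12 (0.01 over all genes), and 62 of 78 members were below 0. Against untreated day-7 cells, with which the treated cells share the day of collection, the falls were smaller but still involved most members in 4 groups. The labels name no refeed on day 3 for these controls, so drug and refeed cannot be told apart here. In TVB-3166 cells 59 members fell and 0 rose (26.1% and 25.4% of all genes), in bleomycin cells 59 fell and 1, MRPS10, rose (23.2% and 22.4%), in doxorubicin cells 65 fell and 0 rose (21.5% and 21.9%), and in palbociclib cells 57 fell and 1, MRPS25, rose (22.9% and 22.0%). In alisertib cells 36 fell and 0 rose (9.49% and 9.55% of all genes), and the number was 18 without day-7 replicate 3 and 12 without alisertib replicate 3, and 8 in a single fit of all 24 libraries. In ND-646 cells 19 fell and 0 rose (17.1% and 17.2%), or 65 and 0 without replicate 1 (28.3% and 26.7%). Without 1 of the other 5 libraries it was 6 to 8: 8 without ND-646 replicate 2, 7 without ND-646 replicate 3 or day-7 replicate 1 or 2, and 6 without day-7 replicate 3. Shares of all genes are not given for these fits, nor for the alternative alisertib fits above. The medians were -0.27 in ND-646, -0.38 in TVB-3166, -0.43 in bleomycin, -0.23 in alisertib, -0.38 in doxorubicin, and -0.38 in palbociclib cells. The members lower in all 6 groups against day-7 were MRPL1, MRPL16, MRPL18, MRPL22, MRPL35, MRPL39, MRPL47, and MRPS27, and those lower in none were MRPL52 and MRPS10. With ND-646 taken without replicate 1, 24 were lower in all 6 groups and 1 (MRPL52) in none. This tally over groups was not made for all genes either.

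The 2 FASTIS groups did not differ in any member with all libraries. Between TVB-3166 and ND-646 cells, 0 members were higher or lower by edgeR's adjusted p and 0 had a raw p under 0.05, against 0.52% and 0.198% of all genes tested, and DESeq2, RLE scaling, and the fit with the replicate number as a block also gave 0. MRPL11, the member with the lowest p, had a log2 difference of -0.44 with a 95% confidence interval of -1.01 to 0.13. Without ND-646 replicate 1, MRPL46 (0.44), MRPL39 (0.34), and MRPL32 (0.37) were higher in TVB-3166 cells on the log2 scale. Of all genes tested, 6.01% were higher and 5.0% lower then, so the share of members was not above that of all genes. There 20 members had a raw p under 0.05, and the median over members turned from -0.08 to 0.12.

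FASTIS cells were then set against the other 4 TIS groups, as the mean of ND-646 and TVB-3166 minus the mean of bleomycin, alisertib, doxorubicin, and palbociclib. Of the members, 13 were higher and 13 lower in FASTIS cells, against 26.3% and 24.7% of all genes tested, so the share of members that differed was not above that of all genes. The median was 0.05, with 0.01 over all genes. Without ND-646 replicate 1, 10 were higher and 29 lower (24.4% and 25.4% of all genes), the median was -0.08, and 23 of the 26 calls remained in the same direction (10 higher and 13 lower).

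**Figure D4:**
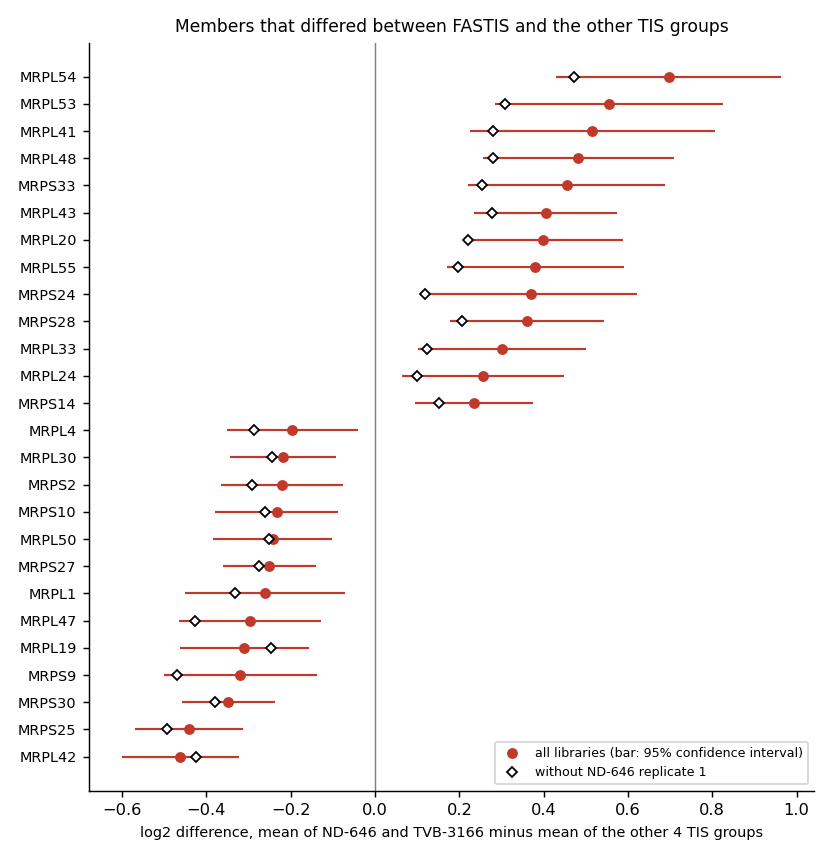
Log2 difference between FASTIS cells (mean of ND-646 and TVB-3166) and the mean of the other 4 TIS groups for the 26 members that passed an adjusted p of 0.05 by edgeR, with 95% confidence intervals, and the same difference without ND-646 replicate 1 (diamonds). The 13 members above 0 all have their diamond closer to 0, whereas 11 of the 13 below 0 do not.

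The members higher in FASTIS cells were led by mitochondria-specific proteins of the large subunit. MRPL42 and MRPS30, among those lower by the most, are of the same class. MRPL20 and MRPS28, also higher, are bacterial homologues. MRPL54 was at 38.2, 19.7, and 16.9 CPM in ND-646 and 21.3, 20.2, and 15.4 CPM in TVB-3166 libraries, and at 11.4 to 16.4 CPM in the 12 libraries of the other TIS groups. The ranges overlapped at TVB-3166 replicate 3, and the difference was 0.70 (SE 0.129, edgeR adjusted p = 0.000115), or 0.47 without ND-646 replicate 1. MRPL53 differed by 0.55 and MRPL41, a protein also described as a binding partner of BCL2, by 0.52, or by 0.31 and 0.28 without that library. The exons of MRPL53 overlap CCDC142 on the same strand by 499 bases. MRPL48 (0.48) and MRPS33 (0.45) followed, at 0.28 and 0.25 without that library, and all 5 still passed the test then. MRPL54 and MRPS33 did not pass the test against day-0 cells in either FASTIS group, with MRPL54 at 0.11 (ND-646) and -0.27 (TVB-3166) and MRPS33 at 0.31 and 0.01.

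The members lower in FASTIS cells were led by MRPL42 (-0.46), MRPS25 (-0.44), MRPS30 (-0.35), MRPS9 (-0.32), and MRPL19 (-0.31), and without ND-646 replicate 1 these differences were -0.43, -0.49, -0.38, -0.47, and -0.25. MRPL42 was at 43.2, 54.7, and 48.5 CPM in ND-646, 53.7, 59.8, and 50.5 CPM in TVB-3166, and 59.1 to 84.0 CPM in the other TIS libraries. MRPS30, also known as a programmed cell death protein, was at 47.1, 45.2, and 39.3 CPM in ND-646 and 48.5, 44.8, and 42.7 CPM in TVB-3166 libraries. All 6 libraries were below the 12 of the other TIS groups, which were at 52.1 to 62.4 CPM, and against day-0 cells it fell in ND-646 (-0.54) and TVB-3166 cells (-0.48) and was at -0.11 to -0.17 in the others without passing the test. MRPS9 and MRPL19 had overlapping libraries.

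These differences were set against transcript length. Over the 78 members, the FASTIS difference had a Spearman correlation of -0.378 with the annotated exon length, and -0.341 without ND-646 replicate 1. Over the 12157 tested genes with a length, it was -0.142, and -0.0175 over 12159 genes without that library. Among those higher, MRPL54 has 985 bases of annotated exon, MRPL53 685, MRPL41 582, MRPL48 3830, and MRPS33 5245. Among those lower, MRPL42 has 16368, MRPS25 18309, MRPS30 6180, MRPL19 8947, and MRPS9 1829. MRPS9 is thus shorter than MRPL48 and MRPS33, against the direction of the correlation. These values are descriptions across genes of the same libraries, and the part of length or RNA quality in the differences was not tested.

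Members that moved together were also examined for what their promoters share. Of the 78, 70 matched a RefSeq promoter by NCBI gene identifier (MRPL2, MRPL10, MRPL13, MRPL15, MRPL21, MRPL23, MRPL35, and MRPS28 did not). The 250 bases before the annotated start were searched on both strands. An ETS-type motif (CCGGAAG), of the kind bound by GABP, was found in 23 (32.9%), against 16.2% of 10078 other coding genes in the count table and 8.815% of 27305 promoters in all. It was concentrated next to the start, with 16 members (22.9%) holding it within the last 50 bases against 7.61% of the other coding genes. An NRF1-type motif (GCATGCGC) was found in 6 (8.57%, against 4.92%), a YY1-type motif (AAGATGG) in 7 (10.0%, against 3.43%), an E-box (CACGTG) in 7 (10.0%, against 9.16%), and a CCAAT box (CCAAT) in 19 (27.1%, against 35.4%). The E-box is palindromic, and no 2 of these motifs share their full letters. A match is a run of letters and not evidence of binding.

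The promoter of MRPS18C is shown because it alone held both motifs, and that of MRPS34 because it held 3 ETS-type matches. Those of MRPL40 and MRPS10 each held 1 ETS-type match near the start, and the genes moved oppositely (-0.85 and 0.35 in bleomycin cells). That of MRPL18 is shown because the gene fell in all 6 groups and its promoter held neither motif in the exact letters searched. It does hold the shorter run CGGAAG, which the search did not count. The sequences are the 250 bases before the start from RefSeq on GRCh38.p14, 5′ to 3′ on the strand of the gene, with ETS-type and NRF1-type matches of either strand in capitals. They lie at chr4:83455808-83456057 (plus strand), chr16:1773135-1773384 (minus), chr22:19432295-19432544 (plus), chr6:42217862-42218111 (minus), and chr6:159789562-159789811 (plus).
MRPS18C: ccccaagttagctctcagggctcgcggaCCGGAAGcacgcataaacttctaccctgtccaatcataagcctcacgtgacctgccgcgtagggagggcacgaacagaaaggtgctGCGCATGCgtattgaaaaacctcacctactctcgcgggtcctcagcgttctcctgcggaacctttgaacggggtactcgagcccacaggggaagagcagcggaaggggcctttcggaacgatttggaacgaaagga
MRPS34: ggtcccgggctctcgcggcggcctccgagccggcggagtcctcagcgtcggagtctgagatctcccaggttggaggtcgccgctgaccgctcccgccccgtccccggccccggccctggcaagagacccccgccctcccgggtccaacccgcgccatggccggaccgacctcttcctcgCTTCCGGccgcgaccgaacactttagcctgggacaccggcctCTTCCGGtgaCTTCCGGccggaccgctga
MRPL40: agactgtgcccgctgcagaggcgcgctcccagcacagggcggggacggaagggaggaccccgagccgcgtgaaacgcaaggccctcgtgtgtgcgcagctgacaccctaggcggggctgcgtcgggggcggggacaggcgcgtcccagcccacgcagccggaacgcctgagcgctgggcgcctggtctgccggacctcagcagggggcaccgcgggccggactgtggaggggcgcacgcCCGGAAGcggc
MRPS10: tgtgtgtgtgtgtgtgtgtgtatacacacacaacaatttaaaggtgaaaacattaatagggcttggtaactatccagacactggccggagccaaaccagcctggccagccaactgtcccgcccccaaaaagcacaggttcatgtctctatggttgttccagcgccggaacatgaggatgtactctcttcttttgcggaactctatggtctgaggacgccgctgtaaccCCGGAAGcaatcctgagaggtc
MRPL18: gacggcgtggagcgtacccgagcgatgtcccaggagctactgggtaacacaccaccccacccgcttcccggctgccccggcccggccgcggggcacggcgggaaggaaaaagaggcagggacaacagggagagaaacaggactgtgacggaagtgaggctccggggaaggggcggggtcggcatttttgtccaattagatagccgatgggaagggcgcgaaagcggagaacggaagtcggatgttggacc

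Members with and without the ETS-type match both fell. Of 23 members with it, 5 fell in ND-646 (17 without replicate 1), 15 in TVB-3166, 18 in bleomycin, 16 in alisertib, 19 in doxorubicin, and 18 in palbociclib cells. Of 47 without it, 20 (43 without replicate 1), 39, 39, 31, 43, and 37 fell in the same groups. Of all genes tested, 18.8% (27.8% without replicate 1), 27.7%, 25.3%, 19.6%, 24.8%, and 27.2% fell there. With all libraries, the 5 of 23 in ND-646 cells was near the share of all genes. The median log2 fold-changes with and without the match were -0.30 and -0.51 in ND-646 (-0.52 and -0.70 without replicate 1), -0.38 and -0.54 in TVB-3166, -0.50 and -0.60 in bleomycin, -0.45 and -0.34 in alisertib, -0.50 and -0.50 in doxorubicin, and -0.58 and -0.48 in palbociclib cells. The difference between members with and without the match was not tested. A further shared feature was position. The start of 17 members (21.8%) lay within 1000 bases of that of a coding gene on the opposite strand facing away from it, against 11.1% of 12065 other coding genes of the table. Among these pairs were MRPL46 with MRPS11 (63 bases apart), MRPL36 with NDUFS6 (41), MRPL47 with NDUFB5 (41), MRPS12 with SARS2 (181), and MRPL18 with TCP1 (109), where NDUFS6 and NDUFB5 encode subunits of respiratory complex I and SARS2 a mitochondrial tRNA synthetase.

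The rest of the mitochondrial translation system was examined by lists. Of 5 mitoribosomal proteins with other symbols, 3 fell in TVB-3166, 4 in bleomycin, 3 in alisertib, 4 in doxorubicin, 4 in palbociclib, and 1 in ND-646 cells (5 without replicate 1), among them GADD45GIP1, AURKAIP1, and CHCHD1. PTCD3, a pentatricopeptide protein of the small subunit, fell in ND-646 (-0.51) and rose in palbociclib cells (0.28). Of 26 assembly factors, 9 fell in ND-646 (13 without replicate 1), 9 in TVB-3166, 13 in bleomycin, 7 in alisertib, 10 in doxorubicin, and 7 in palbociclib cells, and 1 (MTG2) rose in doxorubicin cells. ERAL1, the chaperone of small-subunit ribosomal RNA, MALSU1, RCC1L, and RPUSD4 fell in all 6 groups. Of 16 translation factors, 2 fell in ND-646 (10 without replicate 1), 8 in TVB-3166, 4 in bleomycin, 9 in alisertib, 7 in doxorubicin, and 6 in palbociclib cells. TUFM, the elongation factor that brings tRNA to the ribosome, fell in all 6 (log2 fold-change -0.33 in palbociclib to -0.67 in ND-646 cells), while MTRF1 rose in bleomycin (0.58) and alisertib cells (0.71), C12orf65 in bleomycin (0.74), and GFM2 in palbociclib cells (0.61). These are counts against 17.7% to 27.4% of all genes higher and 18.8% to 27.7% lower in the same comparisons.

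Of 10 genes for replication and transcription of mitochondrial DNA, 4 fell and 0 rose in ND-646 (7 and 0 without replicate 1), 6 fell and 1 rose in TVB-3166, and 5 fell and 0 rose in bleomycin cells. TFAM, which packages mitochondrial DNA and takes part in its transcription, was lower there by 0.66 (0.53 without replicate 1), 0.54, and 0.55 on the log2 scale. In alisertib cells 1 fell and 1 rose, in doxorubicin cells 1 fell and 2 rose, and in palbociclib cells 2 fell and 2 rose. The shares of all genes given for the lists above apply here too. Among 8 regulators of mitochondrial biogenesis, 2 rose and 1 fell in ND-646 cells (3 and 1 without replicate 1) and 3 rose and 2 fell in TVB-3166 cells. MYC was lower in both (-0.58 and -0.65) and higher in doxorubicin (0.46) and palbociclib cells (0.58). In untreated day-7 cells MYC was at 0.56 relative to day-0 (edgeR adjusted p = 0.113). NRF1 was higher in both FASTIS groups (0.90 and 0.53, with 0.68 in ND-646 cells without replicate 1) and lower in palbociclib cells (-0.43). Of 9 mitochondrial stress response genes, 3 rose and 4 fell in ND-646 cells without replicate 1, against 27.1% and 27.8% of all genes tested. With all libraries, ATF4 and DDIT3 rose in all 6 TIS groups, with DDIT3 at 1.70 in palbociclib to 3.62 in ND-646 cells. ATF5 and HSPD1, the matrix chaperonin, fell in all 6. In untreated day-7 cells ATF4 (0.65) rose and ATF5 (-0.79) fell too. Mean DDIT3 was 9.22 CPM there and 4.23 CPM in day-0 cells. Mean ATF4 was 359 CPM in day-7, 337 CPM in alisertib and palbociclib, and 310 CPM in doxorubicin cells. In ND-646 cells HSPA9 (1415 CPM) and LONP1 (149 CPM) had higher means than in day-0 cells (998 and 115 CPM). HSPE1 (83.6 against 111 CPM) and CLPP (29.6 against 40.5 CPM) had lower means, and CLPX was at 67.6 against 62.9 CPM.

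The cytosolic ribosome and the mRNAs of mitochondrial DNA were examined in the same way. Of the 74 cytosolic ribosomal protein genes, 68 fell in doxorubicin, 50 in alisertib, 33 in palbociclib, 15 in TVB-3166, and 8 in bleomycin cells (where 1 rose), against 24.8%, 19.6%, 27.2%, 27.7%, and 25.3% of all genes tested that fell. The medians were -0.52, -0.35, -0.28, -0.18, and -0.0024 on the log2 scale. In ND-646 cells 3 rose and 0 fell, against 19.1% and 18.8% of all genes tested, with a median of 0.51. Without replicate 1, 3 rose and 7 fell, against 27.1% and 27.8% of all genes, with a median of 0.07. In FASTIS against the other 4 TIS groups, 70 were higher and 0 lower, or 49 and 0 without that library. The mitochondrial ones gave 13 and 13, or 10 and 29 without it. Of all genes tested, 26.3% were higher and 24.7% lower, or 24.4% and 25.4% without it. Of the 13 mRNAs encoded in mitochondrial DNA, 1 rose in ND-646, 0 in TVB-3166, 2 in bleomycin, 0 in alisertib, 0 in doxorubicin, and 0 in palbociclib cells against day-0, and 1 fell in palbociclib cells. In day-7 cells their median was -1.14 relative to day-0 without any passing the test. Against day-7 cells, 11 rose in each FASTIS group, 13 in bleomycin, 0 in alisertib, 12 in doxorubicin, and 4 in palbociclib cells. Drug and the refeed of the drug groups cannot be told apart in these comparisons. Of all genes tested, 17.2% rose in ND-646, 25.4% in TVB-3166, 22.4% in bleomycin, 9.55% in alisertib, 21.9% in doxorubicin, and 22.0% in palbociclib cells. Against day-0 these shares were 19.1%, 27.4%, 24.1%, 17.7%, 23.7%, and 26.0%, and 27.2% fell in palbociclib cells. The sources differ on whether libraries were made from total or poly(A) RNA, and levels of mitochondrial messages depend on this.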

How the data were processed

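RNA of SKBr3 cells was sequenced by the authors in 24 libraries. Per the labels and the study's methods, reads were aligned to GRCh37 with HISAT2 and counts were made with StringTie, and the deposited values are whole read counts per gene, not normalized. The counting settings and the use of strand are not given in the sources used here. The labels name an mRNA kit and the methods a total RNA kit.

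Counts were scaled by TMM and tested with edgeR 4.0.16 (R 4.3.3) by the quasi-likelihood test in a separate fit of the 2 groups of each comparison, with low counts filtered by filterByExpr and Benjamini-Hochberg adjustment over all genes tested. FASTIS was compared with the other TIS groups as a contrast in 1 fit of all 24 libraries. Levels are TMM-scaled CPM. Positions, exon lengths, and overlaps come from the GENCODE annotation on GRCh37. Alternatives were DESeq2 1.42.0, RLE size factors, no filter, a minimum of 10 counts in every library, a single fit of all 24 libraries (for FASTIS, of the 18 treated ones), the replicate number as a block, a fold-change of 2 with raw p under 0.05, and leaving out each library in turn. An exact permutation test of 3 against 3 libraries cannot go below p = 0.1 and was not used. Tested on simulated data for bleomycin against day-0 cells (13752 genes), edgeR recovered 57 of 98 genes changed 2-fold (58.2%) and 8 of 100 changed by 0.5 on the log2 scale, with 0 in the wrong direction and 9 false calls among the unchanged genes. Members named in the text were the 3 highest and 3 lowest per kb in day-0 cells, the 5 with the largest absolute change in each drug comparison among those past the threshold whose libraries did not overlap, those changed against the majority, the 5 highest and 5 lowest in FASTIS, the 3 most and 3 least variable over groups, and members with known roles. Other members are named where a list is short. The members and gene lists were chosen with earlier results of these data known. MRPL47 was moved to the bacterial homologues after the lists were written, as the homologue of L29. Same-numbered libraries deviated together for TVB-3166 and ND-646 (correlations 0.371, 0.204, and 0.284). In the other 13 comparisons of 2 groups, at least 1 correlation was under 0.1, and these comparisons were not taken as paired. Most of their correlations were positive, in a range from -0.0951 to 0.301, so whether their libraries were paired was not settled.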

Additional observations from a re-analysis of the deposited data

How the results depend on the processing

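Counts of members at an adjusted p under 0.05 stayed within 1.5 times under RLE size factors, no filter, and a minimum count in all 15 comparisons. By DESeq2, 5 members were lower in untreated day-7 than in day-0 cells, against 0 by edgeR. In a single fit of all 24 libraries, 1 member was lower there, 49 in ND-646 against day-0, 34 in ND-646 against day-7, and 8 in alisertib against day-7 cells. The 2-fold rule with raw p gave 1 member in ND-646, 2 in TVB-3166, 3 in bleomycin, 0 in alisertib, 0 in doxorubicin, and 8 in palbociclib cells against day-0, 0 in each of the 6 comparisons with day-7 cells, and 0 for FASTIS against the other TIS groups. That rule without ND-646 replicate 1, added after seeing the data, gave 11 members in ND-646 against day-0 and 1 against day-7 cells. Leaving out each library in turn gave 10 to 68 members in ND-646 against day-0, 6 to 65 in ND-646 against day-7, 12 to 40 in alisertib against day-7, and 0 to 3 in TVB-3166 against ND-646 cells. Except without ND-646 replicate 1, the shares of all genes in these fits are not given. Medians then ranged from -0.20 to 0.12 in TVB-3166 against ND-646 and from -0.50 to -0.41 in bleomycin against day-7 cells. Of the named members, MRPS6 in ND-646 and MRPS25 in palbociclib cells lost their call when some libraries were left out. The causes were not tested. Changes near 0.5 on the log2 scale were seldom recovered in simulated data, where only 98 and 100 of 13752 genes were changed. In the real bleomycin comparison with day-0 cells, 25.3% of all genes fell and 24.1% rose. The recovery in simulated data therefore does not carry over to the real comparisons. Members that did not pass may still differ.

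With the replicate number as a block, the pairing of TVB-3166 and ND-646 libraries left the count at 0 with a median of -0.05. In the comparisons not taken as paired, the replicate block gave 5 members lower in day-7 against day-0 cells. It gave 35 in ND-646 against day-0 cells and 32 for FASTIS. All counts but that of day-7 against day-0 cells stayed within 1.5 times.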
